A study of Vigna subterranea with 10 samples.

Results

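Photosynthesis begins in 2 pigment-protein complexes of the chloroplast's thylakoid membrane, photosystem II (PSII) and photosystem I (PSI), joined by the cytochrome b6f complex. Light-harvesting proteins bind chlorophyll around each photosystem and pass absorbed energy to it. Most of these proteins are encoded in the nucleus, so their transcripts can be read with a gene array of leaf RNA. The probe sets described here stand for members of this machinery in leaflets of bambara groundnut (Vigna subterranea), an African grain legume. They are 16 of 36578 probe sets of the Affymetrix Soybean GeneChip with values.

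The members were chosen in 2 ways. All probe sets with the gene symbol PSAD, CAB3, PETC or ELIP were taken, which gave 11 (PSAD 5, CAB3 4, PETC 1 and ELIP 1). A further 5 were selected by probe set ID. The study itself listed all 5 of these as changed at 18 °C on these arrays, and 3 of them (Gma.1166.3.S1_x_at, Gma.4593.1.S1_x_at and GmaAffx.92017.1.S1_s_at) also at 23 °C. For a listing it asked for a change of more than 2-fold, or 1 log2 unit, beside a corrected p-value. In the deposited values these 3 differed by -0.44, -0.45 and -0.38 at 23 °C against 27 °C. Gma.10766.1.S1_at differed by -0.95 at 18 °C against 27 °C. These differences fall short of 1 log2 unit, and the reason was not tested. Since the study picked these 5, their differences between temperatures are given as a description with no test. The study listed 0 of the 11 probe sets found by symbol, and these were tested.

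Leaflets came from 3 plants of genotype S19-3. Each plant gave a fully expanded leaflet at 27 °C (the optimal temperature), later at 23 °C (sub-optimal) and last at 18 °C (very sub-optimal), with 3 arrays at each temperature. The groups compared are thus S19-3 leaflets at 18 °C and at 23 °C, each set against those at 27 °C. Those at 18 °C are also set against those at 23 °C. All are of 1 genotype, with no treatment but temperature in the labels. Temperature followed the order of sampling, leaf age and time in every comparison, and these cannot be told apart. Values are log2 expression values as deposited. They reach beyond 16, the limit of the log2 of a 16-bit scan, so differences are given in log2 units and not as folds.

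A probe set is called bright here where its mean over the 9 arrays was 10 or more, which held for 7017 probe sets (19.2%), and dim otherwise. Of the 16 members 12 were bright and 4 dim. The member just inside this limit was PSAD Gma.10852.4.S1_a_at, with a mean of 10.32, and the one just outside was PSAD Gma.10852.4.S1_x_at, with 7.66. Array medians lay between 7.89 and 8.11, and their mean at 18 °C lay -0.12 from that at 27 °C. Names ending in _s_at or _x_at, as 8 of the 12 bright members have, mark probe sets that can bind several transcripts, and _a_at those of alternative transcripts of 1 gene. Differences were tested with limma on all 9 arrays, with a prior variance that follows the mean level, and p-values were adjusted over all probe sets. The methods' t-test, the one the study names, was run beside it. Leaf RNA of a bulk sample cannot tell fewer cells of a type from less RNA per cell.

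As a check of the tissue, Calvin cycle probe sets (7, of which 3 were bright) had mean levels per array of 10.05 to 11.82 at 18 °C, 10.21 to 11.65 at 23 °C and 11.04 to 11.95 at 27 °C. Seed probe sets (16, for storage proteins, protease inhibitors, P34 and LOX1.1, of which GY1 Gma.1897.1.S1_s_at was bright with a mean of 11.81) had 5.35 to 6.66, 6.21 to 6.83 and 6.57 to 7.02 at the same temperatures. Root nodule probe sets (11, 0 bright, and with LBD23 caught by its symbol alone) had 6.35 to 6.58, 6.45 to 7.52 and 6.27 to 7.08. In limma 0 seed and 0 nodule probe sets passed at adjusted p under 0.05 in any comparison. At an unadjusted p under 0.05 in limma, 0 seed and 4 nodule probe sets passed at 18 °C against 27 °C, 0 and 1 at 23 °C against 27 °C, and 2 and 0 at 18 °C against 23 °C, and 0 were called by the methods' t-test once adjusted. At 18 °C against 27 °C 13 of 16 seed probe sets (differences of -2.58 to 1.43) and 7 of 11 nodule probe sets (-3.31 to 4.48) were lower, and their part in the results was not tested.

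The 5 members selected by ID had their lowest values at 18 °C, intermediate values at 23 °C and their highest values at 27 °C. In each of the 5, no array of one temperature overlapped with an array of another. Over all bright probe sets such a fall at both steps held for 81 (1.15%) and nothing is read from this share, since the 5 were picked as changed. The pooled replicate SD of these 5 lay between 0.04 and 0.13. Among bright probe sets the median replicate SD was 0.13 at a mean level of 16 to 17 and 0.23 at 12 to 14. Picking probe sets as changed favours a small spread between replicates, so the range of the 5 is a description only.

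**Figure D1:**
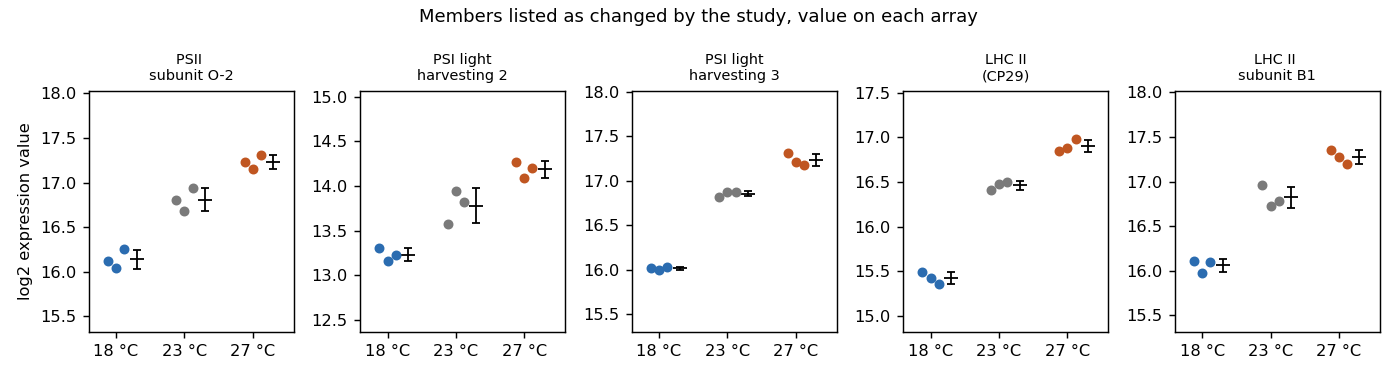
Log2 expression values of the 5 members selected by probe set ID (vertical axis) at 18, 23 and 27 °C (horizontal axis), 1 point per array, with mean and SD (n = 3) beside the points. In each panel the 3 groups lie apart, and the 18 °C points are the lowest.

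PSII subunit O-2 is an outer protein of the oxygen-evolving complex, where it steadies the manganese cluster that splits water. Its probe set Gma.10731.1.S1_x_at had 16.12, 16.04 and 16.25 at 18 °C, 16.80, 16.68 and 16.94 at 23 °C, and 17.23, 17.15 and 17.31 at 27 °C. The difference was -1.09 ± 0.09 (SE, n = 3 arrays per temperature) at 18 °C against 27 °C, -0.42 at 23 °C against 27 °C and -0.67 at 18 °C against 23 °C. Of the whole difference between 18 °C and 27 °C, 38.6% was present at 23 °C.

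The antenna of PSII is made of light-harvesting complex II (LHC II) proteins. LHC II subunit B1, a main antenna protein, was read by Gma.4593.1.S1_x_at with 16.11, 15.98 and 16.10 at 18 °C, 16.96, 16.73 and 16.78 at 23 °C, and 17.35, 17.28 and 17.20 at 27 °C. It differed by -1.21 ± 0.09 at 18 °C and by -0.45 at 23 °C, each against 27 °C. Gma.1166.3.S1_x_at, described by the study as LHC II and matched there to CP29, a minor antenna protein between the main antenna and the PSII core, had 15.49, 15.42 and 15.36 at 18 °C, 16.41, 16.48 and 16.50 at 23 °C, and 16.85, 16.88 and 16.98 at 27 °C. Its difference of -1.48 ± 0.08 between 18 °C and 27 °C was the lowest of the 12 bright members, and -1.04 of it lay between 18 °C and 23 °C.

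The antenna of PSI has its own proteins. PSI light-harvesting 3 (GmaAffx.92017.1.S1_s_at) had 16.02, 16.00 and 16.03 at 18 °C, 16.82, 16.87 and 16.87 at 23 °C, and 17.31, 17.21 and 17.18 at 27 °C. It differed by -1.22 ± 0.07 at 18 °C and by -0.38 at 23 °C, each against 27 °C. PSI light-harvesting 2 (Gma.10766.1.S1_at) had 13.30, 13.16 and 13.23 at 18 °C, 13.57, 13.95 and 13.82 at 23 °C, and 14.27, 14.09 and 14.20 at 27 °C. Its difference of -0.95 ± 0.13 at 18 °C against 27 °C was the smallest in size of the 5, and the 23 °C arrays spread more than those of the other temperatures.

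Among the 5, the share of the difference already present at 23 °C lay between 29.8% (CP29) and 42.6% (PSI light-harvesting 2). The profiles over the 9 arrays correlated at 0.94 to 0.99 in 10 pairs, a description of probe sets that share the arrays and were picked for the same change.

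The members found by symbol varied more among themselves, and nothing is read from this, since those selected by ID were picked as changed. Of the 7 bright ones, 6 were lower at 18 °C than at 27 °C, but 1 passed the test, and their median difference was -0.45. Over all 7017 bright probe sets the median was 0.05. By mean level it was 0.02 at 10 to 12, 0.12 at 12 to 14, 0.11 at 14 to 16, -0.13 at 16 to 17 and -0.19 at 17 to 19. At 18 °C against 27 °C 0.845% of all probe sets were called lower and 1.28% higher at adjusted p under 0.05, and 16.4% of bright probe sets lay wholly below the 27 °C arrays. Of the 7, 2 did so. Before adjustment, 5 of the 11 found by symbol had p under 0.05 in limma and 2 in the methods' t-test, against 12.9% and 11.3% of all probe sets. The count of 6 lower was 5 with each array centred on its median and 4 with quantile normalisation.

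**Figure D2:**
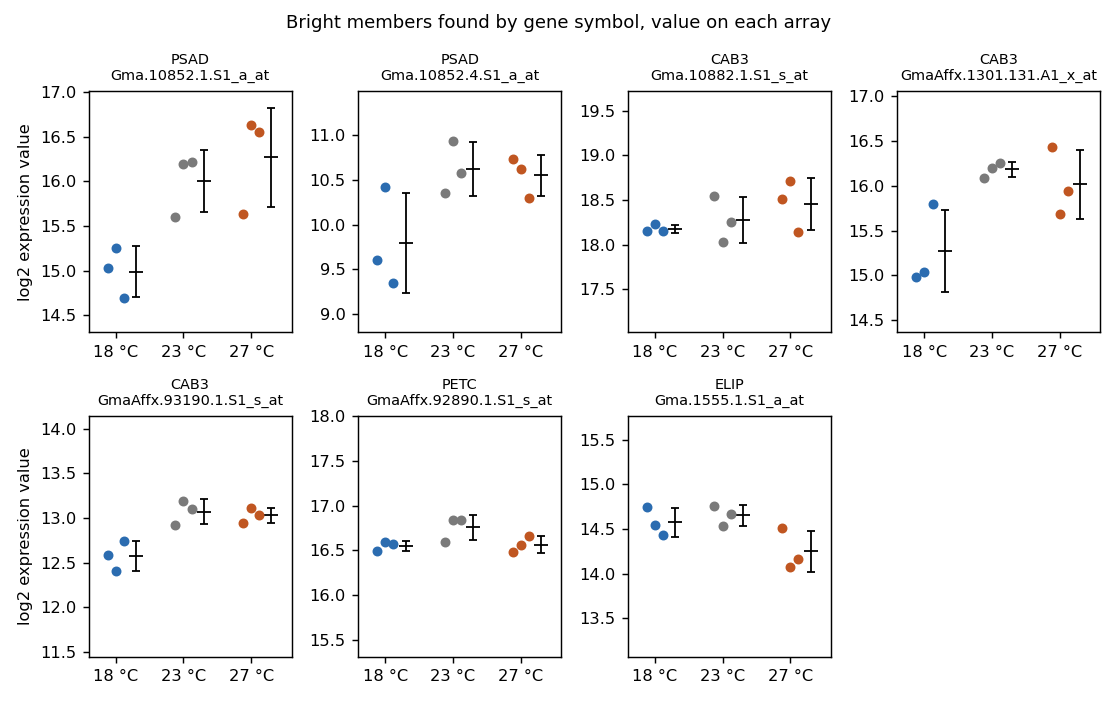
Log2 expression values of the 7 bright members found by gene symbol (vertical axis) at 18, 23 and 27 °C (horizontal axis), 1 point per array, with mean and SD (n = 3). PSAD Gma.10852.1.S1_a_at lies lower at 18 °C, while PETC and the CAB3 probe set of 18.31 mean level overlap between 18 °C and 27 °C.

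PSAD is the PSI subunit on the stromal side that docks ferredoxin, the carrier that takes electrons from PSI. Its bright probe set Gma.10852.1.S1_a_at had 15.03, 15.25 and 14.69 at 18 °C, 15.60, 16.19 and 16.22 at 23 °C, and 15.63, 16.63 and 16.55 at 27 °C. It fell at 18 °C against 27 °C, with a difference of -1.28 ± 0.26 (limma with a variance trend, adjusted p = 0.028), and all 3 arrays of 18 °C lay below all 3 of 27 °C. The call did not hold with 1 common prior variance (adjusted p = 0.316), with the methods' t-test (adjusted p = 0.326), or without 18 °C replicate 1, 2 or 3 (limma adjusted p = 0.0963, 0.0556 and 0.101) or 27 °C replicate 2 or 3 (limma adjusted p = 0.128 and 0.117). At 23 °C the difference from 27 °C was -0.27 ± 0.26 (limma adjusted p = 0.834), and the groups overlapped. All 18 °C arrays also lay below those of 23 °C, at -1.01 ± 0.26, which did not pass over all probe sets (limma adjusted p = 0.122) but did when only bright probe sets were tested (limma adjusted p = 0.041) or without 27 °C replicate 1 (limma adjusted p = 0.0437).

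The other bright PSAD probe set, Gma.10852.4.S1_a_at, had 9.61, 10.42 and 9.35 at 18 °C, 10.35, 10.94 and 10.58 at 23 °C, and 10.74, 10.62 and 10.30 at 27 °C. It differed by -0.76 ± 0.32 at 18 °C against 27 °C (limma adjusted p = 0.335) with overlapping groups. Which probes of either set passed the genomic DNA filter is not known here. The 3 dim PSAD probe sets differed by -1.58 ± 0.92 (Gma.10852.4.S1_x_at), 0.37 ± 1.17 (GmaAffx.5376.4.S1_at) and 1.90 ± 1.70 (Gma.10852.4.S1_at) at 18 °C against 27 °C, so no direction could be read from them. The other dim member, CAB3 GmaAffx.759.1.S1_at, differed by -1.90 ± 1.21. The 4 dim members had values from 2.02 to 9.07 and pooled SDs of 1.12 to 2.40, against 0.04 to 0.41 in the 12 bright ones.

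CAB3 is a chlorophyll a/b-binding protein of the PSII antenna. Its probe set Gma.10882.1.S1_s_at had the highest value of all 36578 probe sets on 9 of 9 arrays, with 18.15, 18.23 and 18.16 at 18 °C, 18.55, 18.03 and 18.26 at 23 °C, and 18.51, 18.71 and 18.14 at 27 °C. It differed by -0.27 ± 0.15 at 18 °C against 27 °C (limma adjusted p = 0.498), and the groups overlapped. Quantile normalisation sets the highest value of every array equal, so it leaves this probe set no difference to read.

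CAB3 GmaAffx.1301.131.A1_x_at had 14.98, 15.04 and 15.80 at 18 °C, 16.09, 16.20 and 16.26 at 23 °C, and 16.44, 15.68 and 15.94 at 27 °C. All 18 °C arrays lay below those of 23 °C, with a difference of -0.91 ± 0.22 (limma adjusted p = 0.106), and 18 °C overlapped with 27 °C at -0.75 ± 0.22 (limma adjusted p = 0.138). Without 18 °C replicate 3 both passed, at -1.18 (limma adjusted p = 0.0311) against 23 °C and -1.01 (limma adjusted p = 0.0289) against 27 °C. CAB3 GmaAffx.93190.1.S1_s_at had 12.58, 12.40 and 12.74 at 18 °C, 12.92, 13.19 and 13.10 at 23 °C, and 12.94, 13.11 and 13.03 at 27 °C. Its 18 °C arrays lay apart from both other groups, at -0.45 ± 0.15 against 27 °C (limma adjusted p = 0.186) and -0.50 ± 0.15 against 23 °C (limma adjusted p = 0.198), without passing the test.

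PETC is the Rieske iron-sulphur protein, which carries electrons within the cytochrome b6f complex. GmaAffx.92890.1.S1_s_at had 16.49, 16.59 and 16.57 at 18 °C, 16.60, 16.84 and 16.84 at 23 °C, and 16.48, 16.56 and 16.66 at 27 °C. Its difference at 18 °C against 27 °C was -0.02 ± 0.09 (limma adjusted p = 0.965), and it was positive with centred arrays (0.10) and with quantile normalisation (0.14). At 23 °C it lay 0.19 ± 0.09 above 27 °C with overlap (limma adjusted p = 0.56), and all 18 °C arrays lay below those of 23 °C, at -0.21 ± 0.09 (limma adjusted p = 0.446).

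ELIP, an early light-induced protein of the thylakoid that binds pigments and is known to accumulate under light stress, had 14.75, 14.55 and 14.43 at 18 °C, 14.76, 14.53 and 14.67 at 23 °C, and 14.51, 14.08 and 14.16 at 27 °C. It was the only bright member with a higher mean at 18 °C than at 27 °C in the deposited values (PETC was higher too with centred arrays or quantile normalisation). The difference was 0.33 ± 0.14 (limma adjusted p = 0.364), or 0.17 with quantile normalisation. At 23 °C all 3 ELIP arrays lay above those of 27 °C, as in 1026 of all 7017 bright probe sets. That difference was 0.40 ± 0.14 (limma adjusted p = 0.348). Neither difference passed the test.

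At 23 °C against 27 °C 0 of the 11 members found by symbol passed limma, where 0.342% of all probe sets were called lower and 0.435% higher. At an unadjusted p under 0.05, 1 of the 11 passed in limma and 0 in the methods' t-test, against 9.42% and 8.17% of all probe sets. Of the 12 bright members 5 lay wholly below their 27 °C arrays, all 5 of them those selected by ID, against 13.6% of all bright probe sets. Nothing is read from this, since the study had picked these 5. At 18 °C against 23 °C 0 of the 11 passed limma, where 0.394% were called lower and 0.55% higher. At an unadjusted p under 0.05, 6 of the 11 passed in limma and 3 in the methods' t-test, against 10.5% and 9.11% of all probe sets. Of the 7 bright members found by symbol, all had a lower mean at 18 °C than at 23 °C in the deposited values (5 with each array centred, 6 with quantile normalisation). Of these 7, 4 lay wholly below the 23 °C arrays, as did 12.7% of all bright probe sets. The 5 selected by ID also lay wholly below, and nothing is read from them for the reason above.

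**Figure D3:**
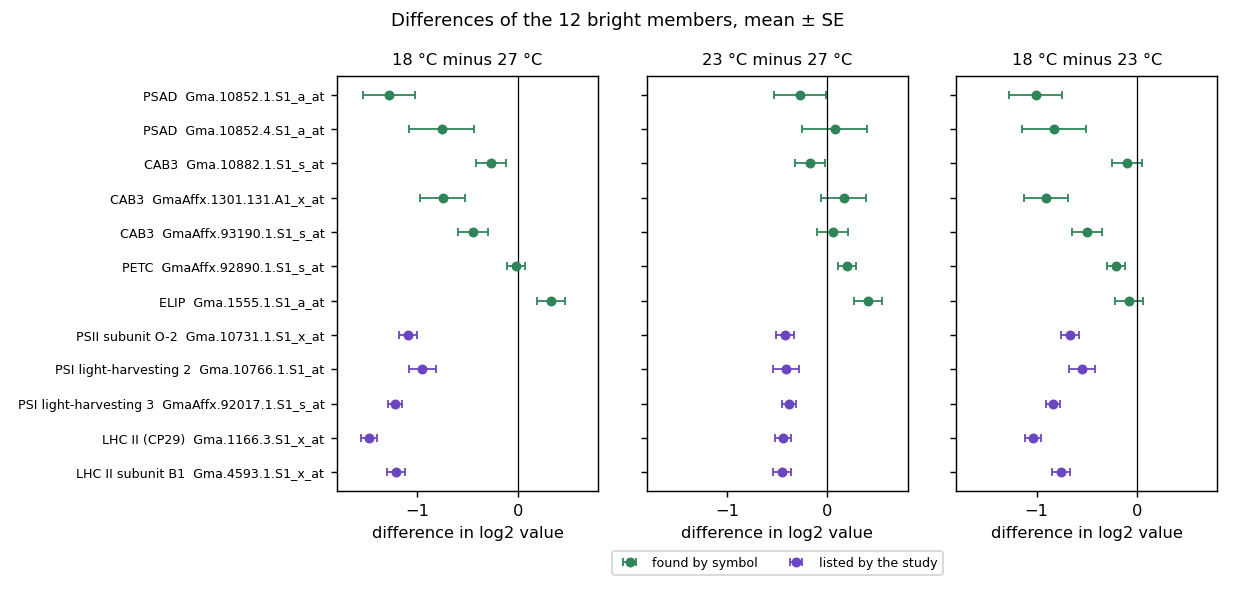
Differences in log2 value (horizontal axis) of the 12 bright members (rows) for the 3 comparisons of temperatures, with SE from the limma fit. Members selected by ID lie between -1.48 and -0.95 at 18 °C minus 27 °C, and those found by symbol between -1.28 and 0.33. The first were picked as changed, so nothing is read from the contrast of the ranges.

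Probe sets of different level differed in the size of their differences. In the highest class, a mean of 17 to 19, 53 probe sets had a median size of difference of 0.20 between 18 °C and 27 °C, and CAB3 Gma.10882.1.S1_s_at, with -0.27, belongs to it. Between 16 and 17, 81 probe sets had a median size of 0.33, and PETC, with -0.02, belongs to these. The other 4 members of that class were selected by ID after the study listed them as changed, so their place in it is no result.

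**Figure D4:**
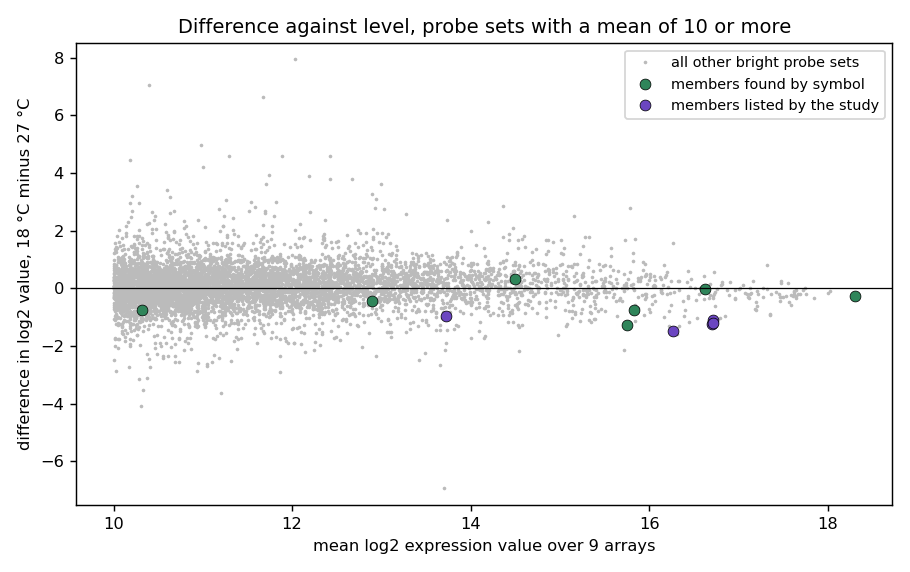
Difference in log2 value at 18 °C minus 27 °C (vertical axis) against mean log2 expression value over 9 arrays (horizontal axis) for bright probe sets, grey, with the members in colour. The brightest probe set, CAB3, lies at -0.27, and the low position of the members selected by ID follows from how they were picked.

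Probe sets that share a cluster number with a member selected by ID were also read, 6 in all, of which the study listed 1. Of the 5 it did not list, 3 were bright. Gma.1166.2.S1_x_at, of the CP29 cluster, had 11.77, 12.25 and 12.69 at 18 °C, 13.26, 13.16 and 13.15 at 23 °C, and 13.67, 13.92 and 13.65 at 27 °C. It fell, with a difference of -1.51 ± 0.21, at 18 °C against 27 °C (limma adjusted p = 0.00387), and the call held with any one array left out. Gma.1166.2.S1_a_at had 12.96, 13.24 and 13.17 at 18 °C, 13.91, 14.05 and 14.06 at 23 °C, and 13.96, 14.68 and 14.53 at 27 °C. It fell at 18 °C against 27 °C, at -1.27 ± 0.18 (limma adjusted p = 0.00433), also with any one array left out, and against 23 °C, at -0.88 ± 0.18 (limma adjusted p = 0.0478). The call against 23 °C held in 1 of 9 fits with 1 array left out (limma adjusted p up to 0.176), and was lost with centred arrays (0.0671), 1 common prior variance (0.506) and the methods' t-test (0.164). With 1 common prior variance neither was called at 18 °C against 27 °C (limma adjusted p = 0.164 and 0.222). The methods' t-test did not call either of them in this comparison (adjusted p = 0.187 and 0.189). Both carry the placeholder symbol LOC100785180 and can share probes, so they are not independent of each other, and they may share probes with the CP29 member that the study picked. Gma.10766.2.S1_at, of the PSI light-harvesting 2 cluster, had 17.43, 17.48 and 17.45 at 18 °C, 17.86, 17.52 and 17.63 at 23 °C, and 17.84, 17.87 and 17.68 at 27 °C, a difference of -0.34 ± 0.09 at 18 °C against 27 °C (limma adjusted p = 0.0955). This was -0.23 with centred arrays and -0.14 with quantile normalisation, and it passed when only bright probe sets were tested (limma adjusted p = 0.0428) or without 23 °C replicate 1 (limma adjusted p = 0.0441). The study listed Gma.4593.1.S1_a_at, of the LHC II subunit B1 cluster, which had 16.23, 16.38 and 16.27 at 18 °C, 17.08, 16.84 and 17.03 at 23 °C, and 17.22, 17.32 and 17.27 at 27 °C, and it was not tested here. The 2 dim ones, Gma.1166.1.S1_at (symbol PAP3) and GmaAffx.92017.1.S1_at, differed by -0.32 ± 1.10 and -0.50 ± 1.38 at 18 °C against 27 °C.

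Besides the members, the study described 15 light-reaction probe sets, all bright, with Gma.4593.1.S1_a_at above among them. It chose them as changed at 18 °C on these arrays, so their direction is no independent evidence. All 15 were lower at 18 °C than at 27 °C with no overlap, with a median difference of -0.93. The lowest was PSI subunit F (GmaAffx.1301.70.S1_s_at), a docking subunit for plastocyanin, at -1.30, and the smallest in size was PSI subunit l (Gma.1316.5.S1_at) at -0.58. At 23 °C against 27 °C, 13 were lower, with a median of -0.14, from -0.44 for PSI subunit O to 0.03 for petM of the cytochrome b6f complex. Of the 15, 6 lay wholly below their 27 °C arrays, against 13.6% of all bright probe sets. The study listed 0 of the 15 at 23 °C, but it had picked them on the same 27 °C arrays, so nothing is read from this count. Their level and their difference at 18 °C, taken with the 5 members, correlated at 0.24 over 20 probe sets, a description only.

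Genes of neighbouring steps were taken by symbol from fixed lists. Chlorophyll synthesis and breakdown gave 8 probe sets, 4 of them bright. CHLH, the large subunit of magnesium chelatase, which commits porphyrin to chlorophyll, had 16.23, 16.21 and 16.06 at 18 °C, 16.41, 16.23 and 16.43 at 23 °C, and 14.64, 15.04 and 15.13 at 27 °C. It rose at both temperatures against 27 °C, by 1.23 ± 0.13 at 18 °C (limma adjusted p = 0.000742) and by 1.42 ± 0.13 at 23 °C (limma adjusted p = 0.000941), and both calls held with any one array left out. The study had listed it at both temperatures, so this is not independent evidence. Neither call held with 1 common prior variance (limma adjusted p = 0.194 at 18 °C and 0.245 at 23 °C) or with the methods' t-test (adjusted p = 0.118 at 18 °C and 0.165 at 23 °C). HEMB, which joins 2 molecules of aminolevulinate early in the path, had 14.47, 15.02 and 14.87 at 18 °C, 14.27, 14.20 and 14.36 at 23 °C, and 14.34, 14.33 and 14.46 at 27 °C, a difference of 0.41 ± 0.14 at 18 °C against 27 °C (limma adjusted p = 0.215). The 3 probe sets of GSA1, which makes aminolevulinate, differed by 0.13, 0.43 and 0.91 at 18 °C against 27 °C without passing. In the whole list 1 of 8 rose and 0 fell at 18 °C against 27 °C, with a median difference of 0.65, and 1 of 8 rose and 0 fell at 23 °C, with a median of -0.15. At an unadjusted p under 0.05, 4 of the 8 passed in limma at 18 °C against 27 °C and 3 in the methods' t-test, against 12.9% and 11.3% of all probe sets. The 18 °C arrays lay wholly above those of 27 °C in 4 of the 8, CHLH and HEMB among them, and wholly below in 0. Of all 36578 probe sets, 3278 lay wholly above and 3637 wholly below. At 18 °C against 23 °C 0 of 8 passed limma, 2 at an unadjusted p under 0.05, and 0 the methods' t-test after adjustment.

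**Figure D5:**
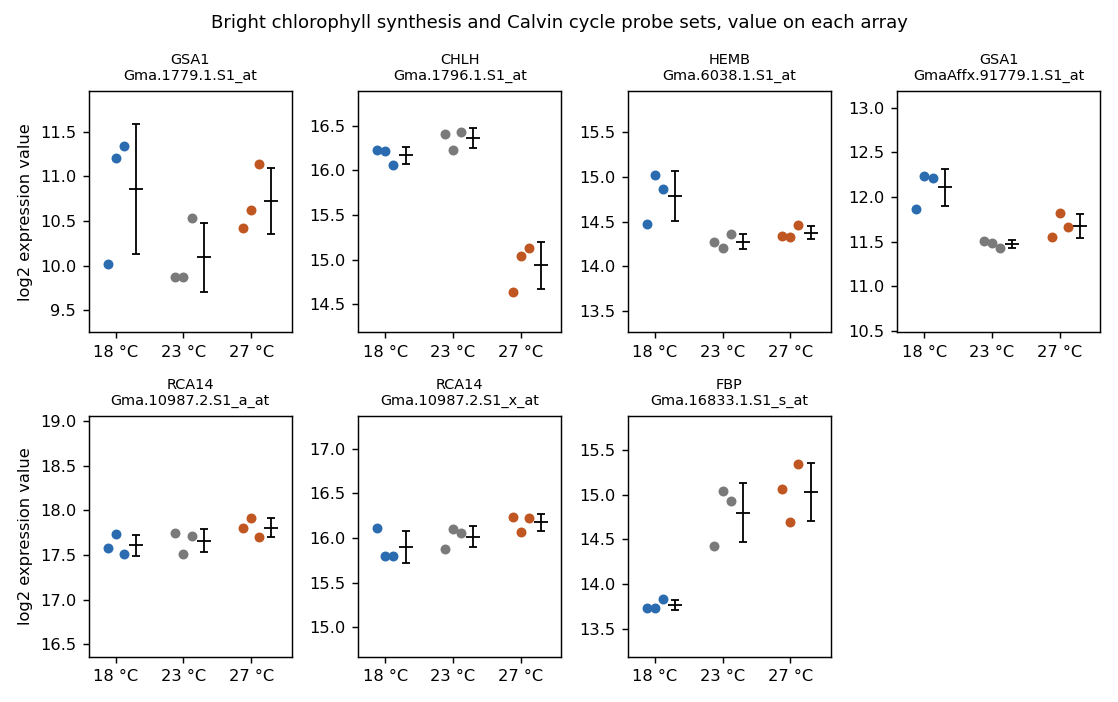
Log2 expression values of bright chlorophyll synthesis and Calvin cycle probe sets (vertical axis) at 18, 23 and 27 °C (horizontal axis), 1 point per array, with mean and SD (n = 3). CHLH lies higher at 18 and 23 °C than at 27 °C, and FBP lies lower at 18 °C.

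The Calvin cycle, which uses the products of the light reactions to fix carbon, gave 7 probe sets, 3 of them bright. FBP, fructose bisphosphatase, was read by Gma.16833.1.S1_s_at with 13.73, 13.73 and 13.83 at 18 °C, 14.42, 15.04 and 14.93 at 23 °C, and 15.06, 14.69 and 15.34 at 27 °C. It fell at 18 °C against 27 °C, at -1.26 ± 0.19 (limma adjusted p = 0.00577), and against 23 °C, at -1.03 ± 0.19 (limma adjusted p = 0.0302). With 1 array left out in turn, the first call held in 9 of 9 fits and the other in 3 of 9. With 1 common prior variance neither was called (limma adjusted p = 0.232 against 27 °C and 0.469 against 23 °C), nor with the methods' t-test (adjusted p = 0.143 and 0.297), and with only the 6 arrays compared the call against 23 °C was lost (limma adjusted p = 0.0521). The other FBP probe set, Gma.16833.1.S1_at, was dim and differed by 0.94 ± 0.70 at 18 °C against 27 °C with overlapping groups (limma adjusted p = 0.663). Rubisco activase RCA14, which keeps Rubisco in its active state, was read by Gma.10987.2.S1_a_at. It had 17.58, 17.74 and 17.51 at 18 °C, 17.75, 17.51 and 17.71 at 23 °C, and 17.80, 17.91 and 17.70 at 27 °C, a difference of -0.19 ± 0.09 at 18 °C against 27 °C (limma adjusted p = 0.42). Its other probe sets, Gma.10987.2.S1_x_at and the dim Gma.10987.2.S1_at, differed there by -0.28 ± 0.11 and -0.67 ± 0.33 (limma adjusted p = 0.304 and 0.451). In the whole list 1 of 7 fell and 0 rose at 18 °C against 27 °C, with a median of -0.67. At 18 °C against 23 °C 1 of 7 fell, with a median of -0.05, and at 23 °C against 27 °C 0 passed in limma or the methods' t-test, also at an unadjusted p under 0.05. The light reactions gave 3 further probe sets by symbol, ATPC, ZEP and SEP1 (a symbol that may belong to another gene), all dim, and 0 passed in any comparison in limma or the methods' t-test, also at an unadjusted p under 0.05.

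Over the 9 arrays, the profile of a probe set can be set beside the mean of the 5 members selected by ID. Among members found by symbol, r was 0.83 and 0.68 for PSAD, 0.46, 0.72 and 0.82 for CAB3, 0.19 for PETC and -0.48 for ELIP. Among 353 other bright probe sets with a gene name, the most alike were COL10 (0.94), a CONSTANS-like transcription factor, PIP1-6 (0.93), an aquaporin of the plasma membrane, FBP (0.92), PRO2 (0.92), a profilin, and the small heat shock protein HSP17.5-E (0.91). At 23 °C these 5 most alike overlapped with 27 °C, unlike the members selected by ID. They differed there by -0.05 (COL10), -0.67 (PIP1-6), -0.23 (FBP), -0.19 (PRO2) and -0.29 (HSP17.5-E). The most opposite were NRP-A (-0.97), PK3 (-0.96) and COPZ1 (-0.95), a subunit of the coat of transport vesicles. The study listed all of these but FBP and HSP17.5-E as changed, and the likeness is a description over 9 arrays. NRP-A had 14.54, 14.34 and 14.42 at 18 °C, 13.02, 13.05 and 12.81 at 23 °C, and 11.82, 12.09 and 11.17 at 27 °C.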

How the data were processed

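RNA from leaflets of 3 plants was hybridised to the Affymetrix Soybean GeneChip, with 3 arrays at each of 3 temperatures. Probes that bound the species' own genomic DNA weakly were masked by the authors, who then deposited log2 expression values made with RMA (submitters' processing notes). The study names the probe threshold it preferred, but no source used here says whether the deposited table was made with it, nor the RMA version, slides or scan dates. Of the deposited log2 values 1312 lay above 16 and 1434 below 0, so a step beyond RMA is unknown. The genomic DNA array (1 column) was not used. The number of arrays limits the precision.

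Gene symbols came from the platform annotation, which gives 8365 probe sets a single symbol, 356 several and 27857 none. All 9 arrays and 36578 probe sets entered limma 3.58.1 in R 4.3.3 (lmFit, eBayes with a mean-dependent, robust prior variance, called the variance-trend limma fit, two-sided, 6 residual degrees of freedom, no low-value filter). P-values were adjusted by Benjamini-Hochberg over all probe sets and called under 0.05. The fit was run on simulated data whose arrays were drawn independently, and nothing is read from that run about the choice of prior. Members, lists and this prior were chosen with earlier results of these data known. The text names every member and sister probe set and the 5 most and 3 least alike named genes, and gives the pathway lists by counts and examples. The authors' lists of changed probe sets were used for names, to set apart members given with no test, and to find other described light-reaction probe sets, with none of their values. Alternatives were 1 common prior variance, the methods' t-test, centred arrays, quantile normalisation, filters on low means, 6 arrays only, replicate number as a block, and each array left out.

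The labels do not tie replicate numbers to plants, and durations at each temperature differ between labels, so none is given. With 3 plants, p-values reflect only the variation among their leaflets.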

Additional observations from a re-analysis of the deposited data

How the results depend on the processing

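The count of all probe sets called was 778 at 18 °C against 27 °C, 284 at 23 °C against 27 °C and 345 at 18 °C against 23 °C. It was 38, 1 and 2 with 1 common prior variance, and 1322, 524 and 798 when only the 7017 bright probe sets were tested. The methods' t-test, run here without the study's filter and fold cut, called 0, 1 and 3. At an unadjusted p under 0.05 the t-test passed 4133, 2989 and 3331. With only the 6 arrays compared, limma called 159 at 23 °C against 27 °C and 160 at 18 °C against 23 °C. Of the 11 members found by symbol, 1 was called at 18 °C against 27 °C, and 0 with 1 common prior variance or the t-test, while 2 were called at 18 °C against 23 °C, PSAD and CAB3 GmaAffx.1301.131.A1_x_at, when only bright probe sets were tested. The share called higher at 18 °C against 27 °C was 60.3%, 72.3% with centred arrays and 52.3% with quantile normalisation. At 18 °C against 23 °C it was 58.3%, 74.7% with centred arrays and 54.3% with quantile normalisation.

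Without each replicate in turn, the counts of all probe sets called ranged from 387 to 857, 96 to 248 and 109 to 265 in the same order of comparisons, and those of members found by symbol from 0 to 1, 0 to 0 and 0 to 1. The median of the bright members ranged from -0.98 to -0.79, -0.27 to -0.07 and -0.71 to -0.67, with the -0.07 found without 27 °C replicate 2. The median of the dim members ranged from -1.11 to 0.04, -0.71 to 0.54 and -0.22 to 0.64, so it has no direction.

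Deviations of same-numbered arrays correlated at -0.0128 to 0.0128 over all probe sets and at -0.0327 to 0.207 over bright ones. Not every pair lay above 0.1, so the replicate numbers were not treated as pairs. Each plant was sampled at every temperature, yet the main limma fit treated the arrays as independent. The labels do not say which arrays share a plant, so a plant effect was not tested. With replicate number as a block 698, 230 and 282 probe sets were called, and 1, 0 and 0 members found by symbol, which changed no member's call. The causes were not tested.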
